A study of Mus musculus with 6 samples.

Results

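The expression of 5 genes, Satb1, Bcl11b, Patz1, Myb and Hivep3, was compared between stage 0 invariant natural killer T (iNKT) cells from wild-type BALB/c mice and from SKG mice. The genes were taken by symbol as 5 of the 48397 rows of the raw count table, and all 5 were among the 12312 genes that passed a filter on low counts. Stage 0 cells are the earliest iNKT precursors after positive selection in the thymus, and the question was how weaker T cell receptor signaling changes their gene expression. BALB/c mice carried wild-type Zap70, the kinase that relays the receptor's signal. SKG mice carried a hypomorphic Zap70 mutation in the germline, on the same BALB/c background, so every cell type of the thymus bore it. There were 3 libraries per genotype, each of about 1000 sorted cells. The thymi of 3 mice, 8 to 10 weeks old, were pooled for a library, so the spread between replicates is one between pools. Cells had been sorted as CD1d tetramer and TCRβ positive, CD24+, CD69+, CD44-, CD8- and low or negative for CD4.

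These genes encode DNA-binding proteins that hold the gene program of developing thymocytes. Satb1 anchors distant regions of chromatin to one another and is required for the high transcription of many thymocyte genes. Bcl11b establishes and keeps T cell identity, Patz1 is a BTB zinc finger protein (also called MAZR) that acts on the Cd8 genes and on Zbtb7b, and Myb sustains immature thymocytes through selection. Hivep3 (also called Schnurri-3) is a large zinc finger protein of the κB-binding family.

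The libraries held 37176544 to 43115544 reads counted on genes, and 10835 to 14791 genes had at least 10 reads. Levels are given as CPM, read counts brought to a common library total with TMM scaling, and the scaling factors lay between 0.975 and 1.05. A call required an FDR (Benjamini-Hochberg) below 0.1 together with a fold change of 1.5 or more in the quasi-likelihood test of edgeR. No gene passed (0% of 12312), the lowest adjusted p was 0.212, and 671 genes (5.45%) had an unadjusted p under 0.05. With the same thresholds DESeq2 called 231 of 13862 genes (1.67%) with shrunken fold changes and 370 of 14342 genes (2.58%) without shrinkage, whereas limma-voom called 0. Zap70 itself had 374 to 498 CPM in BALB/c and 322 to 409 CPM in SKG, overlapping ranges, and a point mutation need not alter its RNA level. Of the genes of the sort, Cd69, an early activation marker, was higher in every BALB/c library (353 ± 39.9 against 193 ± 50.4 CPM, SD, n = 3), and Cd24a, Cd44, Cd4 and Cd8a overlapped between genotypes. The stage 0 iNKT markers (9 genes, 0 of them without reads in every library) summed to 3538 to 4468 CPM in BALB/c and 2933 to 3148 CPM in SKG, with Egr2 the most abundant. These markers differed among themselves. Egr2 (means of 1351 and 777 CPM), Cd69 and Trbv13-2 were higher in every BALB/c library. Trav11d, Cd24a, Cd3e, Cd3d and Zap70 overlapped, and the means of Cd24a and Cd3e were higher in SKG. Markers of double-positive (CD4+ CD8+) thymocytes, the stage before iNKT selection, summed to 185 to 605 CPM in BALB/c and 269 to 499 CPM in SKG over 11 genes, of which 0 lacked reads in every library. The highest sum was that of BALB/c replicate 1, with Cd8a at 121 CPM and Rag1 at 34.9 CPM. Rmnd5a was the most abundant (means of 104 and 126 CPM). Aqp11 was higher in every BALB/c library (means of 8.61 and 0.764 CPM) and Cd1d1 in every SKG library (42.1 and 108 CPM). The other tested markers overlapped. Markers of mature iNKT cells summed to 215 to 364 CPM in BALB/c and 259 to 360 CPM in SKG over 8 genes. Of these 1, Tbx21, lacked reads in every library, and Il2rb was the most abundant (means of 224 and 240 CPM). Cd160 was higher in every BALB/c library (means of 60.2 and 34.7 CPM), and the other tested mature markers overlapped. B cell markers reached at most 105 CPM, myeloid markers 178 CPM (in SKG replicate 3), erythroid markers 69.7 CPM (in BALB/c replicate 1) and thymic epithelial markers 118 CPM. Reads were absent from every library for 1 of 9 myeloid, 2 of 6 erythroid and 2 of 8 thymic epithelial markers. The thymic epithelial maximum, in BALB/c replicate 2, was mostly Ly75 (77.8 CPM) and Epcam (28.1 CPM), with 0 reads of Foxn1 and Aire. The part of these differences in the results on the 5 genes was not tested.

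Among the 5 genes, the 3 SKG libraries lay entirely above the 3 BALB/c libraries for Satb1 and Patz1 and entirely below them for Hivep3. Satb1 was 3.21-fold and Patz1 1.93-fold higher in SKG, Hivep3 was 1.39-fold higher in BALB/c, Bcl11b was higher in 2 of the 3 SKG libraries, and Myb overlapped. Separation of all libraries, in either direction, was seen in 13.9% of the genes tested, with SKG higher in 6.77% and BALB/c higher in 7.12%. The same 3 of 5 genes had an unadjusted p under 0.05, against 5.45% of all genes. The study had already named Satb1 and Patz1 as differentially regulated in these libraries. The 5 genes were chosen with earlier results known, so no enrichment can be read from these shares. EdgeR called 0 of the 5, and DESeq2 called Satb1 and Patz1 with and without shrinkage. In cells sorted in bulk, a lower share of expressing cells and less RNA per cell cannot be told apart.

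**Figure D1:**
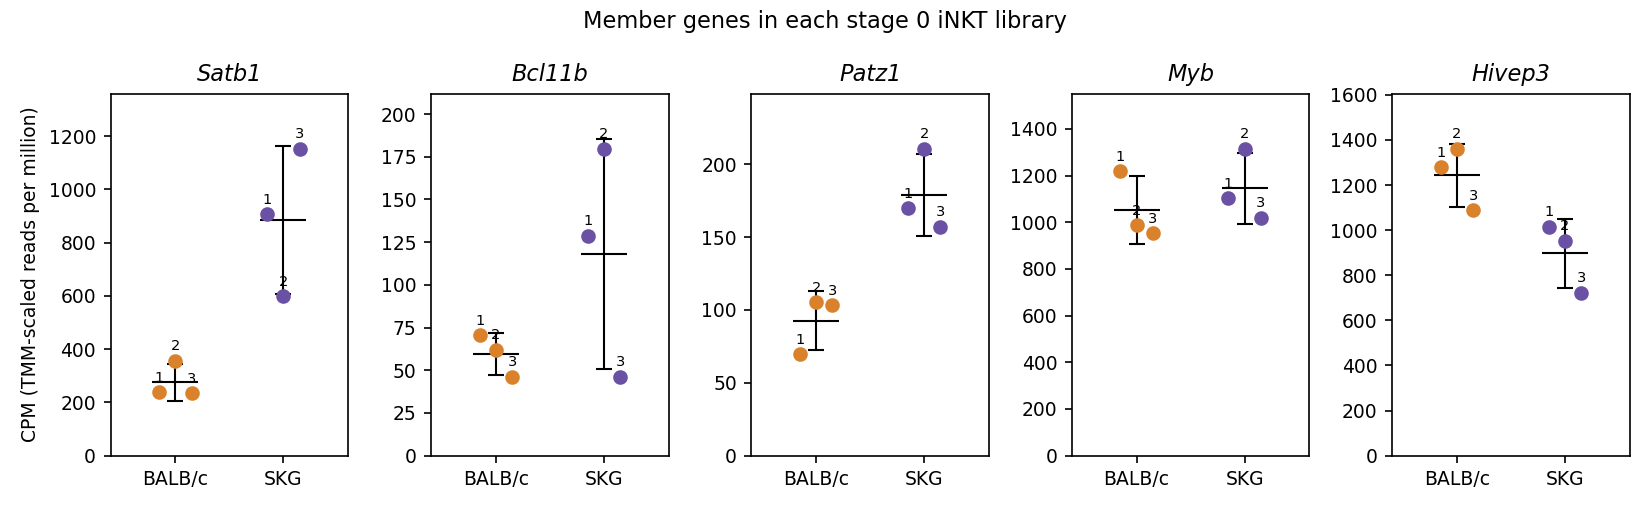
CPM of each gene (linear axes from 0, one scale per panel) in the BALB/c and SKG libraries. Numbered points are replicates, and bars give the mean ± SD (n = 3). Satb1 and Patz1 are higher in all 3 SKG libraries, Hivep3 is higher in all 3 BALB/c libraries, and SKG replicate 3 has Bcl11b at 46.3 CPM, within the BALB/c range.

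Satb1 occupies chr17:51736187-51833290 on the minus strand of GRCm38. Its RefSeq starts (GRCm38.p6) include a pair close together at the upstream end of the gene, and the bases before both are shown because Satb1 had the largest fold change of the 5. For contrast, the bases before the Myb start and before a Patz1 start follow. All are written 5′ to 3′ on the gene's own strand. They hold no annotated untranslated region of an mRNA and no coding part, but may lie in exons of noncoding transcripts. Capitals mark matches, on either strand, to the letters of sites known for 4 kinds of factor, namely Egr (GCGTGGGCG or GCGGGGGCG), NFAT (GGAAA), Runx (TGTGGTT) and Myb (AACGG).
Satb1 upstream start, chr17:51833291-51833540 (-): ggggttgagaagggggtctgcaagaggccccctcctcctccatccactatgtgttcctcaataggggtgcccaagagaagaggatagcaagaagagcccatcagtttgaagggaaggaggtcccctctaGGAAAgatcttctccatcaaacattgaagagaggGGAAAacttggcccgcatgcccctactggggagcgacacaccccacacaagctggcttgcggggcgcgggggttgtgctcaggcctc
Satb1 next start, chr17:51832673-51832897 (-): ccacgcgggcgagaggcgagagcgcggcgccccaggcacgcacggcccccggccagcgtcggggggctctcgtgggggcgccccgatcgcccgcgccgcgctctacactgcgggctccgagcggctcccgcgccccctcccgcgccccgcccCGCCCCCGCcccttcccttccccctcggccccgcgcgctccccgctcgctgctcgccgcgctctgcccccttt
Patz1, chr11:3288881-3289130 (+): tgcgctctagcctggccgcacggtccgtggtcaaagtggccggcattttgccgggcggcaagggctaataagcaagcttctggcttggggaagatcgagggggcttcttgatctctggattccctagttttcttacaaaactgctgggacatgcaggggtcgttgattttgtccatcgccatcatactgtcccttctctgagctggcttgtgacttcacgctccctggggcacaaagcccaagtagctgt
Myb, chr10:21160985-21161234 (-): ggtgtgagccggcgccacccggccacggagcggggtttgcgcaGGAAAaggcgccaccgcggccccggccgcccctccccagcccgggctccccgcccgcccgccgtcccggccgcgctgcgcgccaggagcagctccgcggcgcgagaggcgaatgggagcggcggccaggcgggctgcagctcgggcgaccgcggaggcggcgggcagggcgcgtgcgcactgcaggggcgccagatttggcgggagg
The upstream Satb1 stretch held NFAT letters at positions -121 and -87 from its start, and the stretch before the next start held Egr letters on the opposite strand at -98, overlapping letters of the GC box (GGGCGG). The Patz1 stretch, which lies in an exon of a noncoding Patz1 transcript, held no capitals, and the Myb stretch held NFAT letters at -207.

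RefSeq gave 10 windows of 300 bases, from 250 before to 50 after a start, for the 5 genes. Egr letters stood in 1 of the 10, a Satb1 window, and in 3.47% of all 32851 windows in the table. The short NFAT letters were common, at 61.3% of all windows, the GC box at 35.7%, the Myb letters at 17.45% and the Runx letters at 5.27%, and no Runx letters stood in any window of the 5 genes. The Myb letters appeared in a pair of overlapping Satb1 windows at starts inside the gene, at -29 and -159 from the respective start. The GC content of the 10 windows ran from 43.0% (Bcl11b) to 76.7% (the Satb1 window with the Egr letters), with a median of 55.84%, beside 52.7% over all windows. A match describes letters only, and binding was not measured in these libraries.

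The Satb1 level was 237, 357 and 235 CPM in BALB/c (replicates 1 to 3) and 907, 599 and 1153 CPM in SKG. The lowest SKG library was thus 1.68-fold above the highest BALB/c library. The means were 276 ± 69.7 CPM and 886 ± 278 CPM (SD, n = 3), a log2 fold change of 1.68 (SE 0.29, 95% interval 0.98 to 2.38, 1.97-fold to 5.22-fold). In edgeR it ranked 16 of 12312 by p, and its adjusted p was 0.617. DESeq2 gave a shrunken value of 1.59 on the log2 scale, at an adjusted p of 0.00233. With 1 library left out, the lowest log2 fold change was 1.46 (SKG replicate 3 omitted) and the highest 1.91 (SKG replicate 2 omitted). At 9792 to 41697 reads per library, Satb1 was deeply sampled. Its biological coefficient of variation (the spread between libraries beyond counting error) was 26.6%. That was below the median of 32.8% for the 6031 genes at 32 CPM or more. It was above the median of 17.7% for the 252 genes at 500 CPM or more, to which Satb1, ranked 194 by level, belongs. Of its annotated exon bases 1.49% were shared with the noncoding genes Gm36931 (1304 reads over all libraries) and Gm6934 (408 reads, on the other strand), and counting ignored strand. These totals were small beside those of Satb1, but they do not show how reads on the shared bases were assigned.

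Patz1 (chr11:3288874-3309083, plus strand) had 69.6, 105 and 103 CPM in BALB/c and 170, 211 and 157 CPM in SKG. All SKG libraries were at least 1.49-fold above all BALB/c libraries. The means were 92.7 and 179 CPM (CV 21.6% and 15.7%, n = 3), and the log2 fold change was 0.95 (SE 0.23, 95% interval 0.39 to 1.51). Patz1 ranked 100 of 12312 by p in edgeR, with an adjusted p of 0.682. DESeq2 gave 0.93 on the log2 scale with shrinkage, with an adjusted p of 0.0704. With 1 library left out the log2 fold change ranged from 0.79 to 1.05. It shared 11.7% of its exon bases with Gm12592 (216 reads over all libraries) and Gm11944 (371 reads), few beside the 2870 to 8185 reads per library of Patz1. How reads on the shared bases were assigned is not seen from these totals.

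Bcl11b (chr12:107910403-108003602, minus strand) had 70.5, 62.1 and 46.1 CPM in BALB/c and 129, 180 and 46.3 CPM in SKG. SKG replicates 1 and 2 were above every BALB/c library, and SKG replicate 3 was almost level with the lowest of them. The means were 59.6 ± 12.4 and 118 ± 67.3 CPM (SD, n = 3), the log2 fold change was 0.99 (SE 0.49, 95% interval -0.18 to 2.16), and the edgeR adjusted p was 0.952. The point estimate was close to that of Patz1, but the coefficient of variation was 43.6% against 24.4%, and the interval ran from 0.880-fold to 4.48-fold. Without SKG replicate 3 the log2 fold change was 1.39, and without SKG replicate 2 it was 0.57. The replicate low in Bcl11b was the one with the highest Satb1, 1153 CPM. That library also had the fewest genes with at least 10 reads, 10835. Its Pearson's r with SKG replicates 1 and 2 (log2 CPM of the genes tested) was 0.862 and 0.857, beside 0.916 between SKG replicates 1 and 2. BALB/c replicates 1 and 2 had an r of 0.849. The part of this in the Bcl11b value was not tested. No exon of Bcl11b overlapped another gene.

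Myb (chr10:21124935-21160984, minus strand) had 1219, 987 and 953 CPM in BALB/c and 1103, 1315 and 1020 CPM in SKG. The genotypes overlapped, at means of 1053 ± 145 and 1146 ± 152 CPM (SD, n = 3). The log2 fold change was 0.12 (SE 0.16, edgeR adjusted p = 0.991), and its 95% interval, -0.26 to 0.50, covered folds from 0.837 to 1.42. That interval ends below the 1.5-fold threshold on both sides, and it was the narrowest of the 5. An antisense noncoding gene, Gm26577, covers 6.26% of the Myb exon bases and had 157 reads over all libraries.

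Hivep3 (chr4:119733784-120138045, plus strand) had 1278, 1361 and 1089 CPM in BALB/c and 1015, 952 and 723 CPM in SKG. The 3 BALB/c values all exceeded the 3 SKG values, but the closest pair differed only 1.07-fold, and 1.04-fold with RLE factors in place of TMM. The means were 1243 ± 139 and 897 ± 154 CPM (SD, n = 3), with a log2 fold change of -0.47 (SE 0.17, 95% interval -0.88 to -0.06, edgeR adjusted p = 0.847). DESeq2 gave -0.44 with shrinkage, at an adjusted p of 0.692. With 1 library left out it lay between -0.57 (SKG replicate 1 omitted) and -0.32 (SKG replicate 3 omitted).

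**Figure D2:**
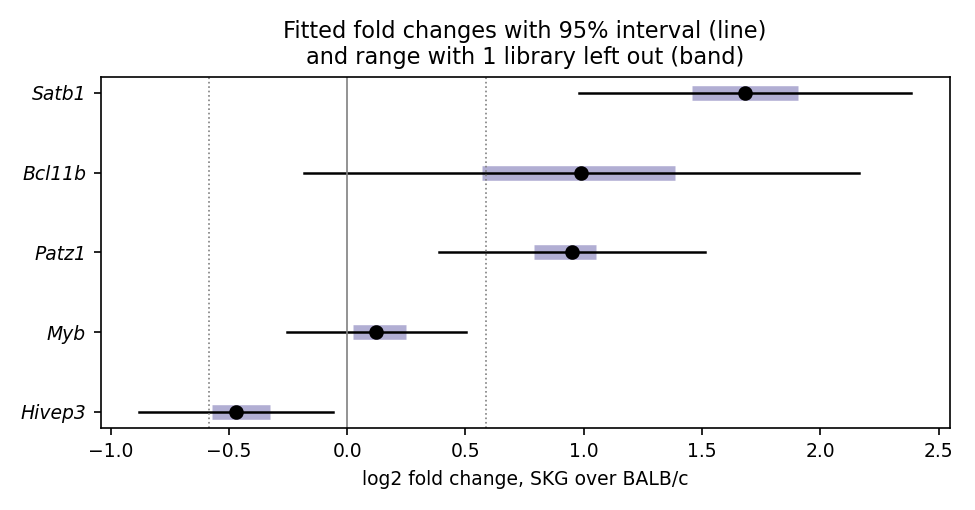
Log2 fold changes of the 5 genes, SKG over BALB/c, from the edgeR fit of all genes. Points are estimates, lines 95% intervals, bands the range with 1 library left out, and dotted lines a fold change of 1.5 in either direction. The interval for Satb1 starts at 0.98, those for Bcl11b and Myb include 0, and that for Hivep3 ends at -0.06.

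Ratios of reads between the genes within a library do not depend on library size or scaling. In BALB/c there were 0.219 Satb1 reads for each Hivep3 read (geometric mean of 3 libraries), and in SKG 0.964. As log2 ratios these were -2.43, -1.93 and -2.22 for BALB/c and -0.16, -0.67 and 0.67 for SKG. The groups did not overlap, and the difference of the means was 2.14 (exact permutation p = 0.1, two-sided, the smallest possible with 3 against 3, 0.167 after Benjamini-Hochberg adjustment over the 10 pairs of genes). Per Myb read there were 0.259 Satb1 reads in BALB/c and 0.751 in SKG, again without overlap, a log2 difference of 1.54 with the same exact p. The log2 ratio of Patz1 to Myb was -4.13, -3.23 and -3.21 in BALB/c and -2.70, -2.64 and -2.70 in SKG, the SKG libraries having an SD of only 0.03. In all, the genotypes were apart in 6 of the 10 pairs, and these included all 4 pairs with Hivep3. The pairs share genes and are not independent, and Hivep3 was itself lower in every SKG library. The share of pairs apart among other genes was not computed, so the count is a description only. The Satb1 to Patz1 ratio overlapped (difference 0.70, exact p = 0.3), and so did Satb1 to Bcl11b (0.86, p = 0.5), Bcl11b to Patz1 (-0.16, p = 0.8) and Bcl11b to Myb (0.68, p = 0.4).

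**Figure D3:**
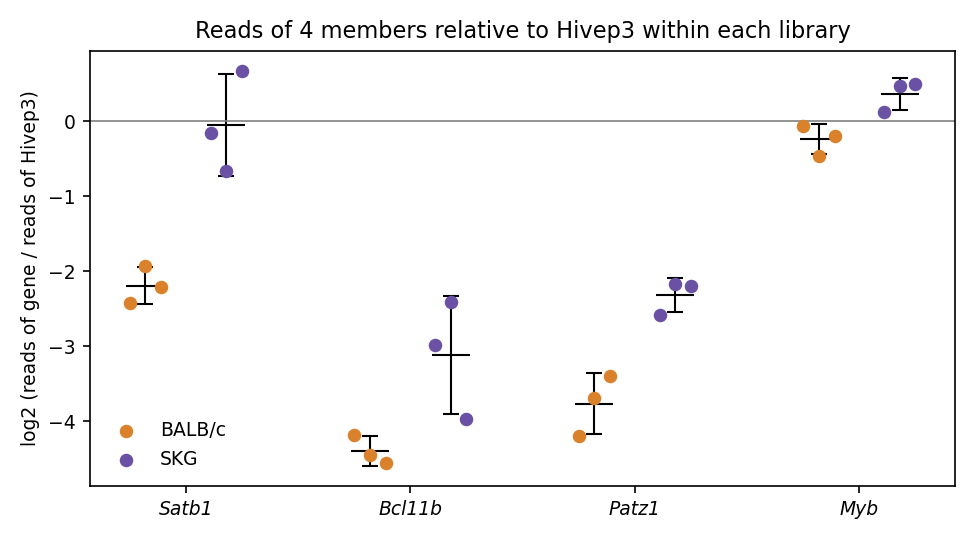
Log2 ratio of the reads of Satb1, Bcl11b, Patz1 and Myb to those of Hivep3 within each library. Points are libraries, bars the mean ± SD (n = 3). The SKG libraries lie above the BALB/c libraries for each of the 4 genes, with mean differences of 2.14, 1.28, 1.44 and 0.60.

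Compared per length of exon, as RPKM (CPM per kilobase of the union of annotated exons), Myb was the most abundant of the 5, at a mean of 123 RPKM over the 6 libraries (107 to 147). Hivep3 followed at 60.7 RPKM (41.0 to 77.2), and Myb was above it in 6 of 6 libraries (exact sign-flip permutation p = 0.0312, 0.0625 after adjustment over 4 neighbouring pairs). Satb1 came next at 30.5 RPKM (12.3 to 60.6) and was below Hivep3 in 5 of 6 libraries (exact p = 0.0938, adjusted 0.125). In SKG replicate 3 Satb1 exceeded Hivep3. Patz1, at 23.0 RPKM (11.8 to 35.7), was below Satb1 in 4 of 6 libraries, and the test did not order these neighbours (exact p = 0.406). These sign-flip tests took all 6 libraries together, so the spread they use includes the difference between genotypes as well as that between pools. The order of the Satb1 and Patz1 means differed by genotype. BALB/c had 14.5 ± 3.67 RPKM of Satb1 and 15.7 ± 3.39 RPKM of Patz1, and SKG 46.6 ± 14.6 and 30.3 ± 4.75 RPKM (SD, n = 3). The BALB/c means lay closer together than either SD, and the order was not the same in every library of either genotype. Bcl11b was lowest, at 7.34 ± 1.53 RPKM in BALB/c and 14.6 ± 8.30 RPKM in SKG, below Patz1 in 6 of 6 libraries (exact p = 0.0312, adjusted 0.0625). With each gene's longest transcript as its length, the pair was ordered by genotype, with Satb1 at 44.2 and Hivep3 at 105 RPKM in BALB/c and 142 and 75.8 RPKM in SKG (means of 3 libraries).

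**Figure D4:**
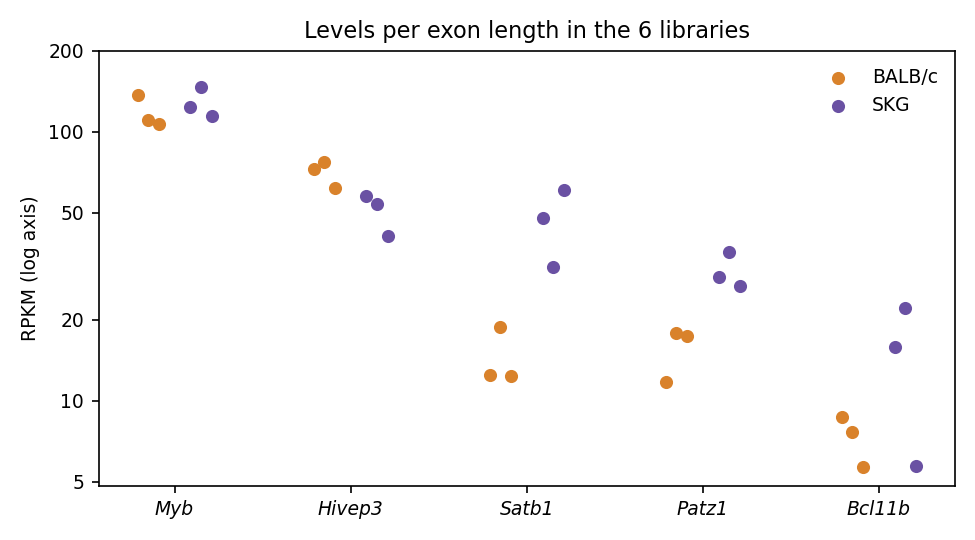
RPKM on a log axis for the 5 genes in order of their mean, with a point for each library. Myb lies between 107 and 147 RPKM in both genotypes, and the spread of Satb1, 12.3 to 60.6 RPKM, has the 3 BALB/c points below the 3 SKG points.

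Of the close relatives of the 5 genes, Hivep2 had reads in the range of Bcl11b, and the others had few or uneven counts. Bcl11a, the paralog of Bcl11b, was counted at 0, 0 and 3 reads for BALB/c and 14, 1 and 0 reads for SKG. Mybl1 had 25, 0 and 4 reads and 202, 0 and 0 reads, and Mybl2, which serves cycling cells, had 92, 4 and 501 reads and 519, 188 and 3 reads. These counts came and went between replicates of a genotype. Hivep1 had 72 and 402 reads in BALB/c replicate 3 and SKG replicate 3 and at most 7 in any other library. Hivep2, counted at 877 to 4588 reads per library, had 23.4, 45.8 and 57.5 CPM in BALB/c and 71.4, 118 and 24.3 CPM in SKG, and like Bcl11b it was high in SKG replicates 1 and 2 and low in SKG replicate 3. Of these relatives Mybl2 and Hivep2 were tested in edgeR, and 0 were called or separated by genotype.

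Other T-lineage factors, 16 of 17 tested, had a median log2 fold change of 0.32, beside -0.02 for all genes. Of the 16, 13 were higher in SKG by estimate, 6 separated with SKG higher, 0 separated with BALB/c higher, and edgeR called 0. Over all genes, 6030 of 12312 were higher in SKG by estimate and 6.77% separated with SKG higher. Tcf7, which encodes TCF-1 and acts with Satb1 and Bcl11b in early thymocytes, had 359, 175 and 184 CPM in BALB/c and 732, 882 and 876 CPM in SKG (log2 fold change 1.79, SE 0.31, edgeR adjusted p = 0.617). It was the gene of this list that DESeq2 called with shrinkage, beside 1.67% of all genes. Tcf3, which encodes the E proteins E12 and E47, had 391 ± 10.3 CPM in BALB/c and 575 ± 76.3 CPM in SKG (SD, n = 3, log2 fold change 0.56, edgeR adjusted p = 0.686).

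Chromatin loop and scaffold genes were all tested (22 of 22), with a median log2 fold change of 0.32. SKG was higher by estimate in 16, and 5 separated, all with SKG higher, against the same 6030 of 12312 and 6.77% over all genes. Ldb1, an adaptor that joins enhancers to promoters, had 86.6, 74.1 and 97.1 CPM in BALB/c and 167, 142 and 154 CPM in SKG (log2 fold change 0.85, SE 0.19, edgeR adjusted p = 0.619). Matr3, a nuclear matrix protein, had 308 to 365 CPM in BALB/c and 460 to 495 CPM in SKG (log2 fold change 0.49). EdgeR called 0 of this list and DESeq2 with shrinkage called Ldb1, beside 1.67% of all genes.

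Of 20 partners of the 5 proteins, such as corepressors and coactivators, 3 separated with SKG higher (6.77% of all genes) and 1 with BALB/c higher (7.12% of all genes), and the median log2 fold change was 0.15. Ctbp1, a corepressor that binds Satb1, had 239 ± 51.6 CPM in BALB/c and 431 ± 18.7 CPM in SKG (SD, n = 3, log2 fold change 0.85, edgeR adjusted p = 0.619). Smarca4, the ATPase of the BAF remodeling complex, had 173 to 226 CPM in BALB/c and 280 to 322 CPM in SKG (log2 fold change 0.64). Crebbp, an acetyltransferase that coactivates Myb, had 93.4 ± 32.5 and 59.2 ± 6.92 CPM (log2 fold change -0.66, adjusted p = 0.952). EdgeR called 0 of these. DESeq2 called Ctbp1 with shrinkage (1.67% of all genes), and Ctbp1 and Smarca4 without it (2.58% of all genes). Of the BTB zinc finger genes, the family of Patz1, 16 of 17 were tested, with a median of 0.14. In that family 1 gene separated, Zbtb44, with SKG higher, beside 6.77% of all genes. It had 50.3 ± 18.9 CPM in BALB/c and 82.0 ± 20.3 CPM in SKG (log2 fold change 0.70, edgeR adjusted p = 0.969). DESeq2 called 0 of the family.

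Genes known to be controlled by Satb1, Myb, Bcl11b or Patz1 in thymocytes went in both directions, and no list was made for Hivep3. Among those under Satb1 control 10 of 14 were tested, 5 higher and 5 lower by estimate, with a median log2 fold change of 0.02. Among those under Myb control (11 of 13 tested) 8 were higher and 3 lower, with a median of 0.42. Under Bcl11b control (11 of 13) 8 were higher and 3 lower, with a median of 0.32. Under Patz1 control (6 of 6) 4 were higher and 2 lower, with a median of 0.30. All libraries separated for 2, 3, 2 and 1 of the tested genes under Satb1, Myb, Bcl11b and Patz1, beside 13.9% of all genes. These lists share genes, and edgeR called 0 in each. Myc, listed under both Satb1 and Myb, had 426, 381 and 374 CPM in BALB/c and 143, 173 and 121 CPM in SKG, far from overlapping (log2 fold change -1.43, SE 0.18, edgeR adjusted p = 0.328), and DESeq2 called it. Cd1d1, the antigen-presenting molecule that selects iNKT cells, had 52.3, 20.2 and 53.8 CPM and 76.2, 96.5 and 151 CPM (log2 fold change 1.36, edgeR adjusted p = 0.834). Slamf6, a costimulatory receptor of iNKT selection controlled by Myb, had 2628 ± 223 and 3325 ± 338 CPM (log2 fold change 0.34, adjusted p = 0.869). Runx3, which silences Cd4 and is listed under Satb1, Bcl11b and Patz1, had 0, 0 and 5 reads among the BALB/c libraries and 60, 403 and 83 among the SKG libraries. It was called by DESeq2 and not by edgeR (adjusted p = 0.830). Cd8a, a target of Patz1, overlapped between the genotypes at 59.8 ± 53.6 and 43.3 ± 19.9 CPM (SD, n = 3).

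**Figure D5:**
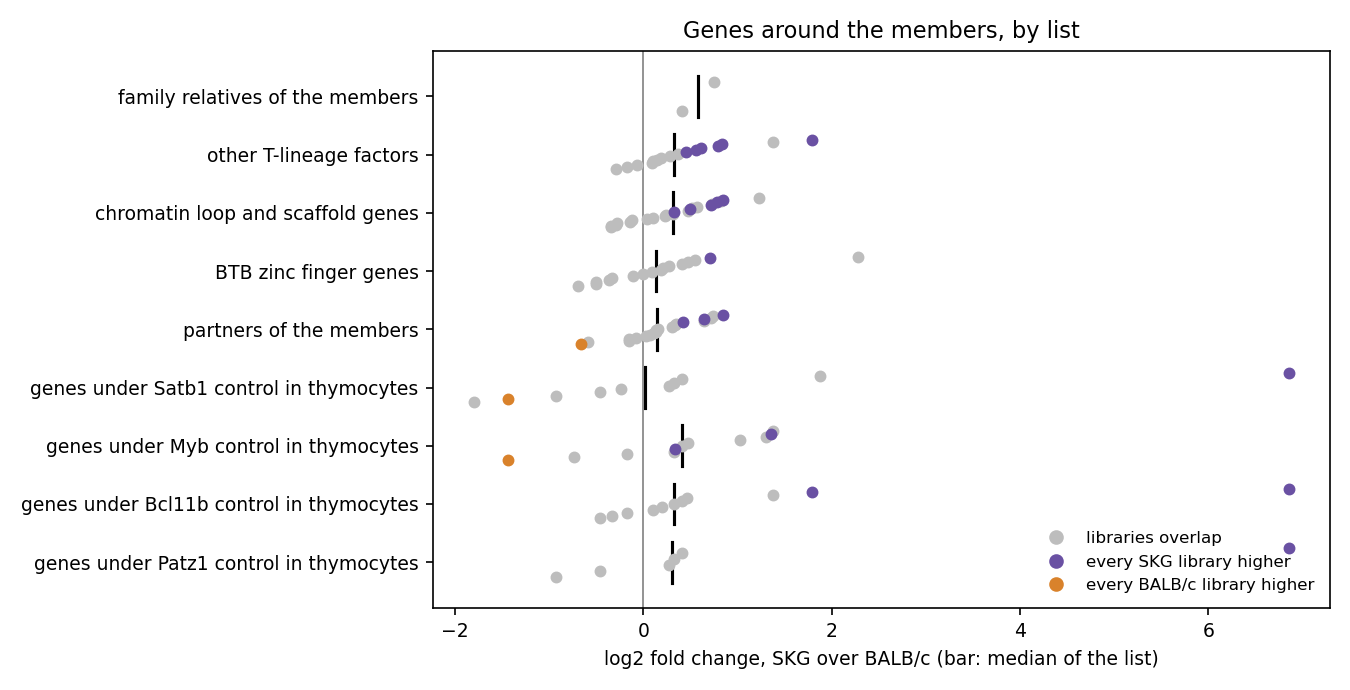
Log2 fold changes, SKG over BALB/c, of the tested genes of 9 lists, with a point per gene and a bar at the list's median. Purple points have every SKG library above every BALB/c library, orange points the reverse, and grey points overlap. The lists of T-lineage factors and chromatin genes hold 6 and 5 purple points and 0 orange points, and the isolated point at the right, Runx3, rests on 0, 0 and 5 BALB/c reads.

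For each gene, the genes with the most similar pattern over the 6 libraries were found by Pearson's r of log2 CPM among 6026 genes of at least 32 CPM. With 6 points that include the difference between genotypes, high values of r are common, and they are given as a description. The nearest to Satb1 were Rnf103 (r = 0.994), Usp25 (0.987) and Scaf4 (0.986), and 19 genes exceeded 0.95. For Patz1 they were Pgam5 (0.995), Top2b (0.988), the topoisomerase found at loop anchors, and Rasgrp1 (0.986), a Ras activator downstream of the T cell receptor, with 43 genes over 0.95. Bcl11b was followed most closely by Ppat (0.992), Arhgap4 (0.979) and Ulk3 (0.967), with 7 genes over 0.95. Myb was nearest to Enthd2 (0.965), Ckap5 (0.964) and Sh2d3c (0.961), with 5. Hivep3 was nearest to Fam117a (0.998) and Zfp330 (0.998), with 28. The 5 genes themselves were left out of this search. Satb1 and Patz1, both separated with SKG higher, had an r of 0.80 with each other over all 6 libraries and -0.19 within genotypes.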

How the data were processed

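RNA of 6 libraries, 3 BALB/c and 3 SKG, was measured by RNA-Seq. The authors aligned reads to GRCm38 with HISAT2 (2.1.0) and counted those on exons with featureCounts (Subread 1.4.4), ignoring strand, and the deposited table holds raw counts for 48397 genes. The labels name the SMART-Seq v4 kit and the study's methods another, SEQR, so the amplification is uncertain. A second deposited table, the authors' DESeq2 (1.14.1) comparison, holds fold changes and p-values and was not used. Groups came from the sample titles. The study describes the 3 per genotype as biological replicates. PCR copies cannot be told from molecules.

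In R 4.3.3, counts of all 6 libraries were fitted without covariates in edgeR 4.0.16 (filterByExpr by genotype, TMM, quasi-likelihood F test) and p-values were adjusted over all genes tested. Intervals use the SE and 6.58 degrees of freedom, and log2 CPM a prior count of 2. DESeq2 1.42.0 and limma 3.58.1 voom were alternatives, with other factors, filters, thresholds, blocks and each library left out. The code was tested on simulated data. Residuals of same-numbered libraries correlated between -0.145 and 0.00289, so libraries were not paired. Positions and exon lengths came from GENCODE, promoter windows from RefSeq (GRCm38.p6), both matched by symbol for 5 of 5 genes. Named genes are the 5, their relatives, the sort genes, the 3 nearest by r, and in each list the called genes and up to 2 per direction that separated with the lowest p. Remarks on single libraries were chosen after the values were seen. Some genes that this rule names are not reported here. The 5 genes and all lists were chosen with earlier results of these data known.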

Additional observations from a re-analysis of the deposited data

How the results depend on the processing

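Of 17 other settings, 0 reversed the direction of any of the 5 genes. Among these, an FDR of 0.05 and no fold-change threshold reuse the main fit, so they could not reverse a direction. DESeq2 alone moved calls for the 5 genes: Satb1 was called at log2 fold changes of 1.70 without and 1.59 with shrinkage, and Patz1 at 0.97 and 0.93. The cause was not tested. Over all genes, where edgeR called 0, DESeq2 called 370 without shrinkage (177 with SKG higher) and 231 with it (118 with SKG higher), edgeR without a filter on low counts called 2 (Susd2 and Gpr83), and a stricter filter left 1 (Susd2). All other settings called 0. With 1 library left out, the number of calls stayed at 0 and the log2 fold changes ranged from 1.46 to 1.91 for Satb1, 0.57 to 1.39 for Bcl11b, 0.79 to 1.05 for Patz1, 0.02 to 0.25 for Myb and -0.57 to -0.32 for Hivep3. With the replicate number of the titles as a replicate block these were 1.67, 0.80, 0.96, 0.12 and -0.48, and with the library number as the block 1.51, 0.46, 1.09, 0.08 and -0.67, with 0 calls under either pairing. The order by RPKM kept 9 of 10 pairs of genes with longest transcripts as lengths and 10 of 10 with any library left out. The coefficient of variation between libraries had a median of 60.9% over all genes and 17.7% over the 252 genes at 500 CPM or more, so precision was greatest for abundant genes such as Myb and Hivep3.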
